A study of Mus musculus with 9 samples.

Results

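Serum amyloid A and acute-phase genes were followed in cultured synovial fibroblasts (SFs) through 6 genes, Saa1, Saa2, Saa3, Lcn2, Hp and Ptx3, of the 49548 genes measured. The 6 genes were chosen by name, with their normalized counts in these same libraries already known, so their values are given as a description and no test is read from them. All 6 were above 0 in at least 1 library of each comparison. The SFs were grown from the ankles of mice aged 8 weeks on a CBA C57BL/6J background, and CD45+ cells had been depleted at passage 1. WT SFs carried no transgene, hTNFtg SFs came from mice that express human TNF and develop arthritis, and the third group was hTNFtg SFs cultured with infliximab, an antibody that neutralizes human TNF, at 1 µg/mL for 48 hours. WT and untreated hTNFtg SFs are labelled as not treated, where the methods describe vehicle. Each group had 3 libraries, which the methods call biological replicates. Nothing in the sources says whether each came from a separate animal, so p-values measure the spread between these cultures. The comparisons ask what chronic human TNF does to SFs and how much of that an anti-TNF antibody takes back.

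The acute-phase response is the change in secreted plasma proteins that follows infection or tissue damage, driven mainly by IL-6, IL-1 and TNF through STAT3, C/EBP and NF-kB factors. Serum amyloid A proteins are small apolipoproteins that bind high-density lipoprotein and lipids, and the liver makes Saa1 and Saa2 in very large amounts, while mouse Saa3 is made mostly outside the liver, by macrophages, fat cells and stromal cells. Haptoglobin (Hp) binds free hemoglobin, lipocalin 2 (Lcn2) binds bacterial iron carriers, and pentraxin 3 (Ptx3) is a long pentraxin that binds microbes and complement and is made locally by fibroblasts, endothelial cells and myeloid cells.

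Saa3 was the gene of the 6 that differed most between the groups, with a mean 186-fold above WT in untreated hTNFtg SFs and 6.66-fold lower with infliximab. Hp moved the same way by a smaller factor. Ptx3 was high in all 9 libraries and its groups overlapped in each comparison, and Lcn2 was low in all groups with a wide spread. Saa1 and Saa2 were at or near 0 everywhere.

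3′ mRNA sequencing reads each transcript near its 3′ end. The deposited values are counts per gene after division by 1 factor for each library and rounding, here called normalized counts. Reads on genes, estimated from the gaps between rounded values, came to 613125 in hTNFtg replicate 1 and to 3828209 to 9014903 in the other 8 libraries. A gene of 3 reads, the least taken here as detected, therefore stood at 18.7 normalized counts in hTNFtg replicate 1 and at 1.60 to 3.31 in the others. The 12 fibroblast markers were all above 0 in each library, and their sum lay between 44712 and 61501 normalized counts. The 24 hepatocyte markers summed to 1829 in infliximab replicate 3, where all 24 were above 0 and Alb, which encodes albumin, was at 265, against 97 to 247 in the other libraries. The 14 macrophage markers summed to 208, 780 and 367 in WT replicates 1, 2 and 3, to 7659, 3378 and 5401 in hTNFtg SFs, and to 3878, 2230 and 4596 with infliximab. Lyz2, the myeloid lysozyme, gave 5356, 2284 and 2356 of the hTNFtg sums, and Ptprc, which encodes CD45, lay at 0 to 3 in WT SFs, 9 to 31 in hTNFtg SFs and 8 to 28 with infliximab. In bulk RNA, fewer cells of a type and less RNA per cell cannot be told apart.

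The start regions of 3 of the genes are shown for a gene that was far higher in hTNFtg SFs (Saa3), a gene of the same cluster that was barely detected (Saa2) and a gene that was high in every group (Ptx3). The sequences are from RefSeq on GRCm38.p6, which is mm10, and 5 of the 6 genes matched an entry, Hp not among them. Each run is 260 bases, 5′ to 3′ on the gene's strand, and ends 10 bases after the start site. Capitals mark matches on either strand to the C/EBP motif TTNNGNAA and to the 10-letter NF-kB consensus. Saa3 is shown from chr7:46715667-46715926 on the minus strand, Saa2 from chr7:46751583-46751842 on the plus strand and Ptx3 from chr3:66219637-66219896 on the plus strand.
Saa3: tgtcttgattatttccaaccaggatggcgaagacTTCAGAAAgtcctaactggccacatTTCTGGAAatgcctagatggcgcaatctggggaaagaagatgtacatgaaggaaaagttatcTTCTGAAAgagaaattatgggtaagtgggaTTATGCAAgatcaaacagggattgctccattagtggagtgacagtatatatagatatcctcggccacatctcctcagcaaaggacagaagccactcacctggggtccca
Saa2: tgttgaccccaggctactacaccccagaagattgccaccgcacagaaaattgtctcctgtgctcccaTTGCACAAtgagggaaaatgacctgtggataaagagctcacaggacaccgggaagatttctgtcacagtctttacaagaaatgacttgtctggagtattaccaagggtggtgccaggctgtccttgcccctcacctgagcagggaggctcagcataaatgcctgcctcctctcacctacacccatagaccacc
Ptx3: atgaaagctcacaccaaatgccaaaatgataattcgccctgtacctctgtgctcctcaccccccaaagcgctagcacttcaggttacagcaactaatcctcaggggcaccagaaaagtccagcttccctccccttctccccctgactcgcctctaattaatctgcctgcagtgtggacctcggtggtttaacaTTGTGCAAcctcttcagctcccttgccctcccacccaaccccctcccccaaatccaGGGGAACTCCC

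Over the full windows, from 250 bases before to 50 after the start, Saa3 held 4 C/EBP matches, beginning at positions -216, -191, -129 and -99 from the start site. Saa1 held 2, at -182 and -86, and Saa2, Lcn2 and Ptx3 held 1 each, at -183, -216 and -57. Of 32851 RefSeq promoters of the same length 40.68% held at least 1, so a single match is common. The NF-kB consensus was found in Ptx3 alone of the 5, as matches that overlap across the start site (-1 to 9 and 1 to 10), and in 8.459% of all promoters. None of the 5 windows held the STAT motif TTCNNNGAA (8.298% of all promoters) or the AP-1 motif TGANTCA (7.808%). Nor did any hold the TATA box letters TATAAA (13.62%), and other forms of the TATA box were not searched. Both strands were searched for each motif. The Saa1 and Saa2 windows were identical at 95.35% of aligned positions, against 50.15% for Saa1 and Saa3. A match describes the letters in the window, not binding.

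**Figure D1:**
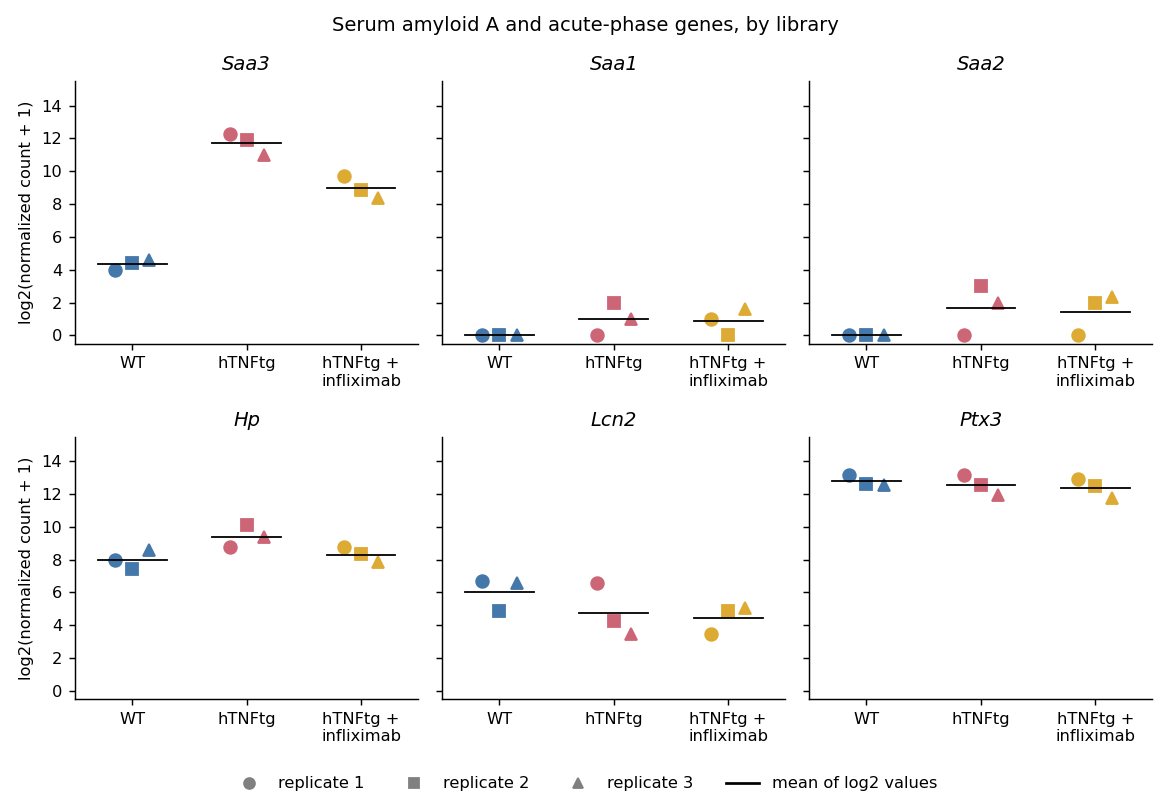
Level of each of the 6 genes in each library as log2(normalized count + 1), by group, where symbols mark the replicate number and bars the mean of the 3 log2 values. Saa3 separates the 3 groups without overlap, Hp separates hTNFtg from WT SFs, and Ptx3 lies at a similar level in all 3 groups.

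Saa3 (ENSMUSG00000040026, chr7:46711998-46715700, minus strand) stood at 15, 20 and 23 normalized counts in WT replicates 1, 2 and 3. Untreated hTNFtg SFs held 4933, 3796 and 2073 normalized counts, and infliximab-treated SFs 822, 470 and 329. All 3 untreated hTNFtg libraries were above all 3 infliximab libraries, and these were above all 3 WT libraries. The group means were 19.3 ± 4.04 in WT (SD, n = 3), 3601 ± 1440 in hTNFtg (SD, n = 3) and 540 ± 254 with infliximab (SD, n = 3). On the scale of log2(normalized count + 1), Saa3 was 7.40 (SE 0.36) higher in hTNFtg than in WT SFs. Between infliximab-treated and untreated hTNFtg SFs the difference was -2.75 (SE 0.41). Infliximab-treated SFs were still above WT by 4.65 (SE 0.33), a 27.9-fold difference of the means.

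Leaving out each library in turn kept the hTNFtg difference in Saa3 between 7.13 and 7.75 and the infliximab difference between -3.10 and -2.44. Without hTNFtg replicate 1, the shallow library that holds the highest value, the difference from WT was 7.13. The macrophage marker sum given above was also higher in all 3 hTNFtg libraries than in all 3 WT libraries, and its part in the Saa3 difference was not tested. That sum was 3378 to 7659 in untreated hTNFtg SFs and 2230 to 4596 in infliximab-treated SFs. Its part in the infliximab difference of Saa3 was not tested either.

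Hp (ENSMUSG00000031722, chr8:109575128-109579172, minus strand) stood at 254, 172 and 379 normalized counts in WT SFs. Untreated hTNFtg SFs held 436, 1086 and 653 and infliximab-treated SFs 442, 319 and 226. All 3 hTNFtg values were above all 3 WT values, and the infliximab values overlapped both groups. The lowest hTNFtg value, 436 in replicate 1, rests on about 70 reads and has a 95% Poisson interval of 339.9 to 550.9, which covers counting error only. Means were 268 ± 104 in WT (SD, n = 3), 725 ± 331 in hTNFtg (SD, n = 3) and 329 ± 108 with infliximab (SD, n = 3). The hTNFtg mean was 2.70-fold above WT, and the log2 difference was 1.40 (SE 0.40).

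With infliximab, the log2 difference of Hp from untreated hTNFtg SFs was -1.09 (SE 0.37), a 2.20-fold difference of the means. The difference between infliximab-treated and WT SFs was 0.31 (SE 0.32). The infliximab library with the high hepatocyte sum, replicate 3, held the lowest Hp value of its group, and without it the infliximab difference was -0.85. Without hTNFtg replicate 2, which held the highest value of all 9, the difference from untreated hTNFtg SFs was -0.75 and that of hTNFtg from WT SFs was 1.06.

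Saa1 (ENSMUSG00000074115, chr7:46740497-46742980, minus strand) was at 0 in the 3 WT libraries. It stood at 0, 3 and 1 normalized counts in hTNFtg SFs and at 1, 0 and 2 with infliximab. The highest of these, 3 in hTNFtg replicate 2, is about 4 reads, so no fold is given. Saa2 (ENSMUSG00000057465, chr7:46751790-46754313, plus strand) was likewise at 0 in WT SFs, at 0, 7 and 3 in hTNFtg SFs and at 0, 3 and 4 with infliximab. With WT set to 3 reads per library, the ratio of the hTNFtg mean of Saa2 to it was 1.32, but 0.59 without hTNFtg replicate 2, so no fold is given for this gene either. In hTNFtg replicate 1, 0 reads have a 95% Poisson interval that reaches 22.98 normalized counts, so that library says little about either gene.

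The 5 Saa genes of the files lie within 42316 bases of chromosome 7, with no other gene of the tables between them. Saa4, the serum amyloid A of resting plasma, stood at 38, 28 and 41 normalized counts in WT SFs, at 56, 21 and 5 in hTNFtg SFs and at 27, 23 and 9 with infliximab. Its hTNFtg and WT values overlapped (log2 difference -0.89, SE 0.73, adjusted p = 0.726 by limma), and without hTNFtg replicate 3 the difference was -0.03 and without hTNFtg replicate 1 it was -1.66. Infliximab-treated SFs overlapped untreated hTNFtg SFs but lay below WT SFs without overlap, with a log2 difference of -0.94 (SE 0.43, adjusted p = 0.44 by limma). The pseudogene Saa-ps was at 0 in all 9 libraries. Saa3 held values that did not overlap between any pair of groups, while Saa1, Saa2 and Saa-ps were at or near 0 throughout.

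Saa1 and Saa2 are similar copies, and how far their reads could be told apart was not tested. Their coding sequences were identical at 95.12% of aligned positions, and the last 200 bases of their transcripts, where 3′ reads fall, at 90.15%, with a longest shared run of 39 bases. The same figures were 75.86% and 47.83% for Saa1 and Saa3, and the longest run shared by the ends of that pair was 8 bases. How reads that fit several places were counted is not given in the sources used here. Infliximab replicate 3, with the high hepatocyte sum, held 2 normalized counts of Saa1 and 4 of Saa2, the highest values of its group for both genes, and the part of hepatocyte RNA in them was not tested.

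Lcn2 (ENSMUSG00000026822, chr2:32384633-32388252, minus strand) stood at 103, 28 and 94 normalized counts in WT SFs. It was at 93, 18 and 10 in untreated hTNFtg SFs and at 10, 28 and 32 with infliximab. The groups overlapped in all 3 comparisons. The 93 in hTNFtg replicate 1 is about 15 reads, with a 95% Poisson interval of 52.3 to 154.1. Means were 75 ± 41 in WT (SD, n = 3), 40.3 ± 45.8 in hTNFtg (SD, n = 3) and 23.3 ± 11.7 with infliximab (SD, n = 3).

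The log2 difference of Lcn2 between hTNFtg and WT SFs was -1.29 (SE 0.75), and leaving out 1 library moved it from -2.19 (without hTNFtg replicate 1) to -0.64 (without hTNFtg replicate 3). Without WT replicate 2 it was -1.88. Between infliximab-treated and untreated hTNFtg SFs it was -0.30 (SE 0.76), and it turned to 0.60 without hTNFtg replicate 1. Between infliximab-treated and WT SFs it was -1.59 (SE 0.56), with a WT value of 28 inside the infliximab range, and it ran from -2.18 without WT replicate 2 to -1.09 without infliximab replicate 1. The mean of Lcn2 was thus highest in WT SFs.

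Ptx3 (ENSMUSG00000027832, chr3:66219910-66225805, plus strand) stood at 9297, 6229 and 5869 normalized counts in WT SFs. Untreated hTNFtg SFs held 9180, 5981 and 3992 and infliximab-treated SFs 7654, 5754 and 3416. The 3 groups overlapped, and the spread within each group was wider than the difference of its mean from the others. Means were 7132 ± 1884 in WT (SD, n = 3), 6384 ± 2617 in hTNFtg (SD, n = 3) and 5608 ± 2123 with infliximab (SD, n = 3). The log2 differences were -0.21 (SE 0.50) for hTNFtg against WT, -0.18 (SE 0.50) for infliximab against untreated hTNFtg and -0.39 (SE 0.33) for infliximab-treated hTNFtg against WT SFs. Ptx3 lies within Veph1, which runs on the opposite strand and stood at 12 to 40 normalized counts.

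Neutrophils store Lcn2, Hp and Ptx3 in their granules. Of the 14 neutrophil markers S100a9, Ngp, Ltf, Ctsg and Ly6g were at 0 in all 9 libraries. The list summed to 743 to 1089 normalized counts in WT, 626 to 1086 in hTNFtg and 726 to 986 in infliximab-treated SFs, and Elane alone accounted for 519 to 1024 in the 9 libraries. Camp, the granule peptide cathelicidin, was at 9 to 20 in WT, 41 to 104 in hTNFtg and 19 to 44 in infliximab-treated SFs.

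**Figure D2:**
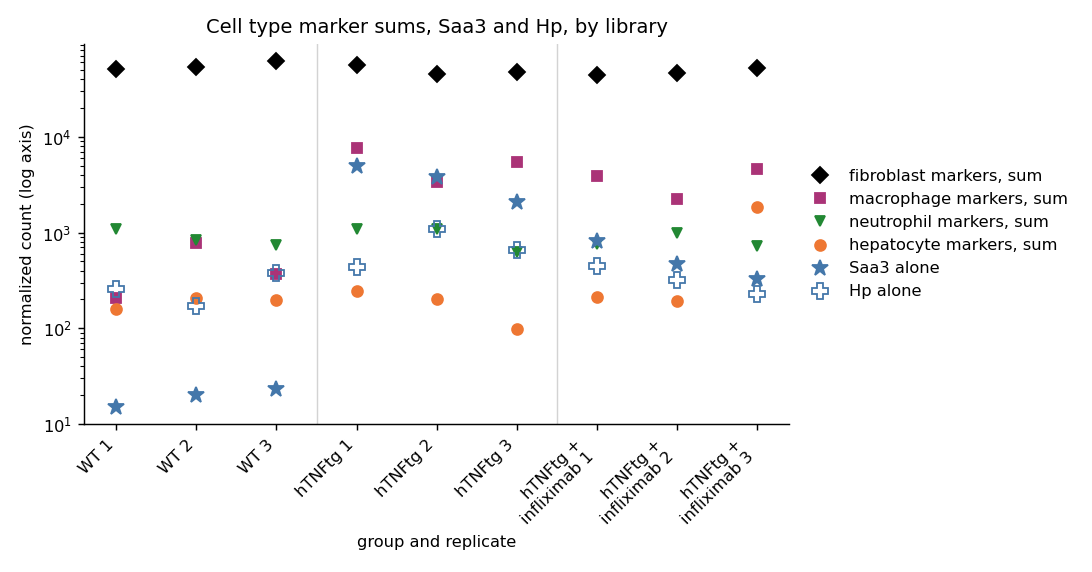
Summed normalized counts of the 4 marker lists and the normalized counts of Saa3 and Hp in each library, on a log axis. The macrophage sum and Saa3 are both higher in the 6 hTNFtg libraries than in the 3 WT libraries, and the hepatocyte sum stands apart at 1829 in infliximab replicate 3, where Hp is at 226.

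The study's rule asks for an unadjusted P under 0.05 and for a log2 change of 1 or more in size. Past it, 3 of the 6 genes stood higher in hTNFtg SFs (Saa2, Saa3 and Hp) than in WT SFs and 0 lower. Over all 28522 genes tested by limma, 3.35% were past the rule as higher and 3.04% as lower. In infliximab-treated against untreated hTNFtg SFs, 0 of the 6 were higher and 2 were lower (Saa3 and Hp), where all 28540 genes gave 1.49% and 0.936%. In infliximab-treated hTNFtg against WT SFs, 2 were higher (Saa2 and Saa3) and 1 was lower (Lcn2), where all 28243 genes gave 3.86% and 2.95%. Saa2, at 0 in WT SFs, was not past the rule against them in hTNFtg SFs at a pseudocount of 5 or 0.5 in place of 1, with all 9 libraries in one fit, with a replicate block, or without any 1 of the WT libraries, hTNFtg replicate 2 or hTNFtg replicate 3. Nothing is read from these counts, since the genes were chosen with their values known. The median log2 difference of the 6 genes was 1.20, -0.26 and 0.59 in the 3 comparisons, beside 0.00 over all genes tested in each, and -0.07, 0.04 and -0.01 over the genes with a mean of at least 10 normalized counts. Without hTNFtg replicate 1, 5 of the 6 were past the rule against WT SFs, with Saa1 higher and Lcn2 lower in addition. Of all genes 8.34% were past it without that library, against 6.39% with it. Of the infliximab differences, that of Hp was not past the rule without hTNFtg replicate 2, infliximab replicate 2 or infliximab replicate 3. Nor was it with a replicate block. Of the differences between infliximab-treated and WT SFs, that of Saa2 was not past the rule at a pseudocount of 5, with all 9 libraries in one fit, with a replicate block, or without any 1 of the WT libraries, infliximab replicate 2 or infliximab replicate 3. That of Lcn2 was not past it with all 9 libraries in one fit, with array quality weights, with a replicate block, or without WT replicate 1, WT replicate 3, infliximab replicate 1 or infliximab replicate 2.

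**Figure D3:**
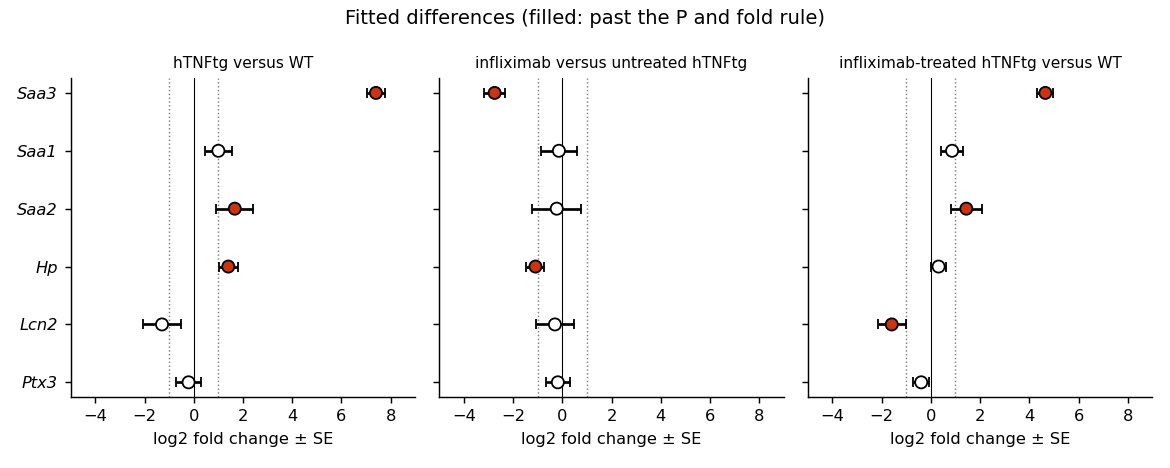
Fitted log2 difference of each gene with its SE in the 3 comparisons, where filled points are past the rule and dotted lines mark a log2 fold change of 1 up and down. Saa3 lies at 7.40, -2.75 and 4.65, and Ptx3 within 1 of 0 in all 3 comparisons.

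Among the other acute-phase proteins, complement C3 and metallothionein Mt1 rose in hTNFtg SFs and the IL-1 receptor antagonist Il1rn fell. Of 32 listed genes 27 could be tested. Past the rule, 5 were raised (Fgb, C3, Cfb, Mt1 and Mt2) and 4 lowered (Serpina3n, Lrg1, C4b and Il1rn), where all genes gave 3.35% and 3.04%. The median log2 difference over the list was -0.26. The list was written with earlier results of these data known. At an adjusted p under 0.05, 3 of them passed (C3, Mt1 and Il1rn), where 0.48% of all genes did. Fgb, a fibrinogen chain, was at or under 3 reads in both groups. With some library left out, Fgb, Serpina3n and C4b were not past the rule, and the other 6 were past it with any library left out. None of the 3 adjusted calls held with any library left out (lowest adjusted p = 0.0512 by limma).

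C3, the central complement protein, stood at 78, 69 and 162 normalized counts in WT SFs, at 592, 1184 and 1171 in hTNFtg SFs and at 576, 396 and 323 with infliximab. The hTNFtg and WT values did not overlap, with a log2 difference of 3.28 (SE 0.40, adjusted p = 0.00631 by limma). The infliximab difference was -1.16 (SE 0.35, adjusted p = 0.803 by limma), without overlap, and it was not past the rule without hTNFtg replicate 2 (-0.99), hTNFtg replicate 3 or infliximab replicate 3 (-0.97). Infliximab-treated SFs were above WT SFs by 2.12 (adjusted p = 0.0286 by limma). C3 thus lay in the same order of groups as Saa3. Cfb, factor B of the alternative complement pathway, went from 804 ± 156 in WT to 2220 ± 840 in hTNFtg SFs (SD, n = 3; adjusted p = 0.187 by limma). C4b of the classical pathway was lower, at 29.7 ± 16.9 against 128 ± 107 in WT SFs (SD, n = 3; adjusted p = 0.297 by limma), and its log2 difference went from -1.97 to -1.33, not past the rule, without WT replicate 1.

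Il1rn, the secreted antagonist of the IL-1 receptor, stood at 30966, 22047 and 17452 normalized counts in WT SFs, at 2859, 4228 and 771 in hTNFtg SFs and at 5001, 6260 and 1796 with infliximab. The log2 difference between hTNFtg and WT SFs was -3.44 (SE 0.64, adjusted p = 0.0466 by limma), or 8.97-fold lower in the means, and the infliximab values overlapped the untreated ones. Without hTNFtg replicate 3 the log2 difference was -2.72. Mt1 and Mt2 encode metal-binding metallothioneins. Mt1 went from 457 ± 103 to 1504 ± 219 (SD, n = 3; adjusted p = 0.037 by limma) and Mt2 from 1319 ± 1119 to 5988 ± 2355 (SD, n = 3; adjusted p = 0.118 by limma). The log2 difference of Mt2 was 2.42, and 3.08 without WT replicate 1. The short pentraxins Crp and Apcs, which the liver makes, were at 0 in all WT and untreated hTNFtg libraries. With infliximab, Crp stood at 2, 0 and 2 and Apcs at 0, 0 and 7, the 7 in the library with the high hepatocyte sum.

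In the infliximab comparison, 3 of the 32 tested acute-phase proteins were past the rule as lower (Cp, C3 and Cfb) and 0 as higher, where all genes gave 0.936% and 1.49%. Cp, the copper carrier ceruloplasmin, was at 15 ± 7.55 with infliximab and 43.3 ± 31.8 without (SD, n = 3), where the untreated libraries held 25, 25 and 80. Without hTNFtg replicate 3, which held the 80, the log2 difference went from -1.38 to -0.83. Each of the 3 genes was not past the rule with some library left out. No gene of the whole table had an adjusted p under 0.05 by limma (0%), although 1026 had an unadjusted p under 0.05, and the quasi-likelihood test of edgeR on approximate reads found 165 with an adjusted p under 0.05. Between infliximab-treated hTNFtg and WT SFs, 3 were higher (Serpina3g, C3 and Mt2) and 2 lower (Serpina3f and Il1rn), where all genes gave 3.86% and 2.95%. Of these, C3 and Il1rn had an adjusted p under 0.05, where 0.74% of all genes did, 209 in number, and with any library of that comparison left out 0 to 1 of all genes did.

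Of the 32 genes that induce or regulate the acute-phase response, all could be tested in hTNFtg against WT SFs, and 8 were raised (Lif, Nfkb1, Relb, Nfkbia, Nfkbiz, Tnfaip3, Tnfrsf1b and Zc3h12a) and 2 lowered (Cebpa and Il17rc). The median log2 difference was 0.26. Over all genes 3.35% were raised and 3.04% lowered. At an adjusted p under 0.05, 2 of the 32 passed (Nfkbia and Cebpa), where 0.48% of all genes did. Neither adjusted call held with any library left out (lowest adjusted p = 0.0506 by limma), and with some library left out Nfkb1, Relb, Il17rc and Zc3h12a were not past the rule. Of the other NF-kB genes listed, Nfkb2, Rela and Bcl3 were not past the rule. Nfkbia, the NF-kB inhibitor that NF-kB itself induces, stood at 302, 267 and 319 normalized counts in WT SFs and at 953, 1313 and 1714 in hTNFtg SFs, a log2 difference of 2.12 (SE 0.31, adjusted p = 0.0148 by limma). With infliximab it stood at 708, 600 and 859, between the other groups without overlap.

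Nfkbiz, a nuclear IkB protein needed for Lcn2 induction in several cell types, stood at 39, 19 and 15 normalized counts in WT SFs, 162, 100 and 50 in hTNFtg SFs and 95, 76 and 78 with infliximab. It was above WT in all 6 hTNFtg libraries (log2 difference 2.01, SE 0.52, adjusted p = 0.165 by limma), the opposite direction to the mean of Lcn2. Tnfaip3, which encodes the NF-kB brake A20, and Lif, an IL-6 family cytokine, were at most at 3 reads in WT SFs and each at least 11.2-fold higher in hTNFtg SFs, set against 3 reads per WT library, with adjusted p = 0.124 and 0.111 by limma. Without hTNFtg replicate 1 these bounds were 6.94-fold for Tnfaip3 and 8.13-fold for Lif. Tnfaip3 stood at 50, 14 and 21 in untreated hTNFtg SFs and at 9, 5 and 11 with infliximab, a log2 difference of -1.52, which was -1.02 without hTNFtg replicate 1.

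Among the C/EBP factors, Cebpa stood at 327, 372 and 409 normalized counts in WT SFs, 19, 82 and 88 in hTNFtg SFs and 141, 150 and 160 with infliximab. The log2 difference from WT was -2.80 in hTNFtg SFs (SE 0.50, adjusted p = 0.037 by limma), and infliximab-treated SFs were above untreated by 1.52 (SE 0.49, adjusted p = 0.803 by limma), and its 3 groups did not overlap, in the reverse order to Saa3. The 19 in hTNFtg replicate 1 is about 3 reads, and without that library the differences were -2.10 and 0.81, the second not past the rule. Cebpb and Cebpd, the members of that family best known for acute-phase induction, overlapped between hTNFtg and WT SFs, with log2 differences of -0.32 (SE 0.46) and 0.69 (SE 0.37). Il6, the main inducer in the liver, was low in both, at 18, 20 and 37 in WT and 12, 22 and 46 in hTNFtg SFs, with a log2 difference of -0.04 (SE 0.60). Stat3 and Socs3 were not past the rule, with log2 differences of 0.03 (SE 0.31) and 0.07 (SE 0.57).

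**Figure D4:**
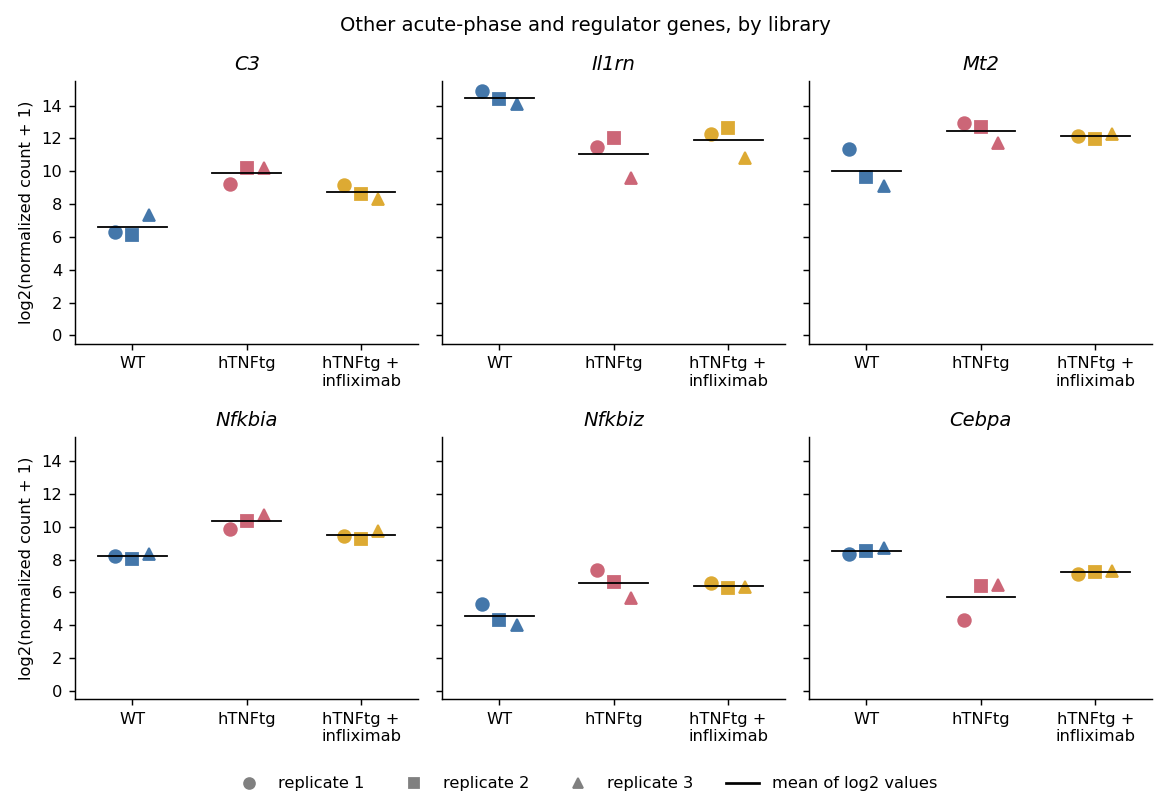
Level of 3 other acute-phase genes (C3, Il1rn, Mt2) and 3 regulators (Nfkbia, Nfkbiz, Cebpa) in each library as log2(normalized count + 1), where symbols mark the replicate number and bars the mean of the 3 log2 values. C3 and Nfkbia are highest in untreated hTNFtg SFs, and Il1rn and Cebpa are highest in WT SFs.

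Infliximab moved 3 of the 32 regulators past the rule, Cebpa and Il17rc as higher and Tnfaip3 as lower, where all genes gave 1.49% and 0.936%. Each of the 3 was not past it with some library left out. Between infliximab-treated hTNFtg and WT SFs, 6 were higher (Lif, Il11, Nfkbia, Nfkbiz, Tnfaip3 and Tnfrsf1b) and 2 lower (Lifr and Cebpa), where all genes gave 3.86% and 2.95%. Il17rc, a subunit of the IL-17 receptor, was at 56 ± 11.3 in WT SFs, 24.7 ± 16.9 in hTNFtg SFs and 51.7 ± 9.45 with infliximab (SD, n = 3). Its lowest value, 6 in hTNFtg replicate 1, lies under 3 reads, and without that library its log2 difference went from -1.47 to -0.70 against WT SFs and from 1.36 to 0.59 with infliximab, neither past the rule. Tnfrsf1b, the second TNF receptor, was 2.27-fold above WT in hTNFtg SFs and 2.22-fold above WT with infliximab, without overlap in either comparison. Its infliximab-treated difference from WT SFs was not past the rule without infliximab replicate 1 (0.99) or infliximab replicate 3 (0.87), and that of Lifr was not past it with some library left out.

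The 28 listed receptors and partners of these proteins include scavenger and Toll-like receptors for serum amyloid A, the Lcn2 receptor Slc22a17 and partner Mmp9, and the C1q subunits and Fc receptors that pentraxins bind. Of 26 tested in hTNFtg against WT SFs, 10 were raised (Fpr1, Fpr2, Tlr2, Cd36, Mmp9, Fcgr2b, Fcgr3, C1qa, C1qb and C1qc) and 1 lowered (Slc22a17), with a median log2 difference of 1.10, where 3.35% of all genes were raised and 3.04% lowered. At an adjusted p under 0.05, 1 passed (C1qb), where 0.48% of all genes did, and not with any library left out (lowest adjusted p = 0.0658 by limma). With some library left out Fpr1, Fpr2, Cd36, Mmp9 and C1qc were not past the rule. Fpr1, Fpr2, Cd36 and Fcgr2b were at or under 3 reads in each WT library. C1qb stood at 4, 15 and 10 normalized counts in WT SFs and at 187, 62 and 190 in hTNFtg SFs (log2 difference 3.78, SE 0.59, adjusted p = 0.0209 by limma). Of the raised genes C1qa and C1qb are also in the macrophage list, whose sum was higher in the same libraries. The part of that sum in the differences of these or the other raised genes was not tested. Slc22a17 was at 42, 26 and 35 in WT SFs, 12, 11 and 10 in hTNFtg SFs and 29, 35 and 22 with infliximab.

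With infliximab, 1 of the 26 tested receptors and partners was higher past the rule (Slc22a17) and 2 were lower (Tlr2 and C1qb), where all genes gave 1.49% and 0.936%. Tlr2, a receptor that binds serum amyloid A, was at 36 ± 4.58 without and 15 ± 6 with infliximab (SD, n = 3). Each of the 3 was not past the rule with some library left out, Tlr2 for example without infliximab replicate 1 (log2 difference -0.97 in place of -1.27). Compared with WT SFs, infliximab-treated SFs had 9 of the 26 tested genes higher (Tlr1, Cd36, P2rx7, Mmp9, Fcgr2b, Fcgr3, C1qa, C1qb and C1qc) and 0 lower, where all genes gave 3.86% and 2.95%. Of these, Mmp9 and C1qc were not past the rule with some library left out. Tlr1 stood at only 1 to 4 normalized counts with infliximab and at 0 in WT SFs. Fcgr2b and C1qb had an adjusted p under 0.05, where 0.74% of all genes did, and neither did with any library left out (lowest adjusted p = 0.0955 by limma).

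The genes closest in pattern were found among 13600 genes with a mean of at least 10, as the smallest root mean square (RMS) difference between log2 profiles over the 9 libraries, each centred on its own mean. For Saa3 these were Ccl20, a chemokine for T cells and dendritic cells (0.77), Fxyd2, a regulator of the sodium pump (1.14), Sirpb1c, a myeloid receptor (1.18), Mmp3, stromelysin 1 (1.18), and Lyz1, a lysozyme (1.26). Saa3 itself varied by 3.09 around its mean on that scale. Ccl20 stood at 15, 12 and 10 normalized counts in WT SFs, 1439, 696 and 650 in hTNFtg SFs and 150, 129 and 170 with infliximab. Mmp3 stood at 90, 140 and 141, then 3170, 4055 and 4079, then 865, 642 and 1004. Neither gene overlapped between any pair of groups. Both were picked for profiles close to that of Saa3, which itself did not overlap, so nothing is read from this.

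**Figure D5:**
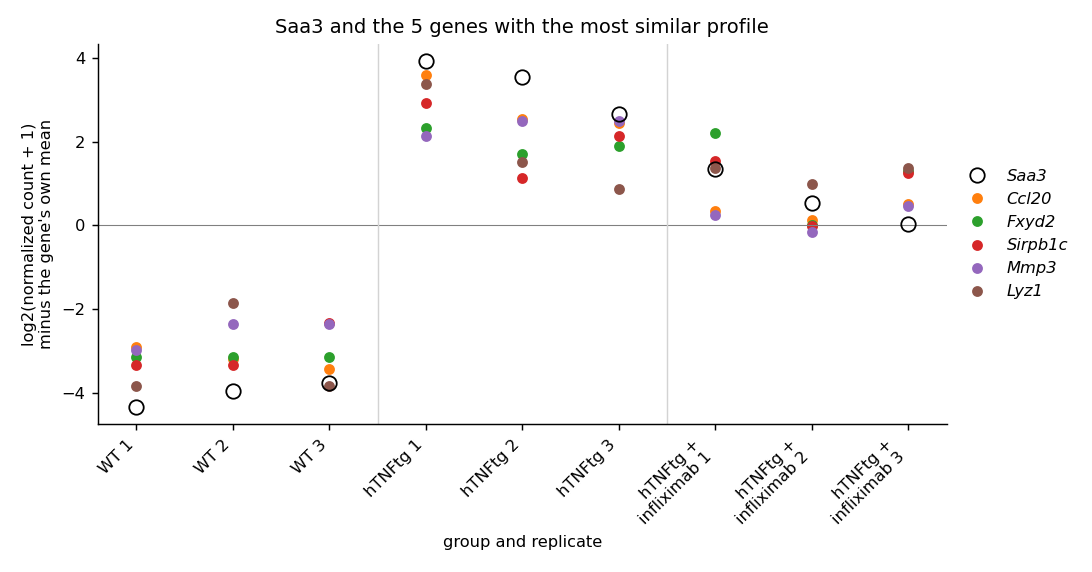
Centred log2(normalized count + 1) of Saa3 (open circles) and of the 5 genes closest to it in each library, each gene minus its own mean over the 9 libraries. All 6 genes are below their mean in WT SFs and above it in untreated hTNFtg SFs, and in the WT libraries Saa3 lies lowest or next to lowest. The other genes were picked for this likeness.

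For Hp the closest genes were Gm14830 (0.25), 4930402H24Rik, Nelfe, Gm20547 and Psmb10 (0.34), the last an immunoproteasome subunit, against 0.76 for the variation of Hp itself. Nelfe and Gm20547 have nearly the same values in each library, so they may share reads. Ptx3, which varied by 0.46, was closest to Kcnab1 (0.14), Mblac1, Zfp74, Asah2 and Prpf18 (0.18). Lcn2, which varied by 1.20, was closest to Rnf32 (0.59), Blm, Gm12074, Rabl2 and Clpx (0.66). The points of each profile share a library and its depth.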

How the data were processed

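The 6 genes and the lists were chosen with earlier results of these data known. QuantSeq 3′ libraries were sequenced on an Ion Proton; per the methods and the submitters' processing notes, the authors mapped reads to mm10 with TopHat2, mapped the rest with Bowtie2, counted reads per gene and normalized with DESeq through metaseqR. The score used for each gene and library is the count that the authors divided by 1 factor per library and rounded. In hTNFtg replicate 1 the deposited signal is whole reads times a factor, since 100% of its low values are multiples of 1 read (within 0.1 read), against 2.21% to 51.2% in the other libraries, whose reads are approximate. 1 read was worth 6.23 normalized counts there and 0.534 to 1.10 elsewhere. The design assumed normalized counts and was kept. Per-sample columns of 2 other forms (24 columns) and the authors' own fold changes and p-values were not used. The 3 untreated hTNFtg libraries are in both deposited tables with the same values, and entered once.

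Each comparison used limma 3.58.1 (lmFit, eBayes with trend; R 4.3.3) on log2(normalized count + 1), which understates the change of low genes, over the 6 libraries compared and genes above 0 in at least 1. Adjusted p-values are Benjamini-Hochberg over all genes tested. As an alternative count test, edgeR 4.0.16 (glmQLFit, glmQLFTest) was run on the approximate reads and gave 923, 165 and 1321 genes with an adjusted p under 0.05 in the 3 comparisons (hTNFtg versus WT, infliximab versus untreated hTNFtg, infliximab-treated hTNFtg versus WT), against 137, 0 and 209 by limma. Also tried were pseudocounts of 5 and 0.5, a filter at a mean of 10, rescaling by median ratios, array quality weights, all 9 libraries in one fit, the replicate number as a block, and leaving out each library. The fits were tested on simulated data for hTNFtg versus WT SFs. These counts came from a negative binomial with the same dispersion for every gene, the kind of model that edgeR fits, so the simulation may favour edgeR. Only genes that average 10 or more were changed, 4-fold up or down. Nearly all changed genes passed the study's rule with either tool, but more unchanged than changed genes passed it too, and at an adjusted p under 0.05 limma found only a minority of the changed genes, where edgeR found most, so the adjusted counts by limma may miss changed genes. The estimate of what 1 read is worth was also tested, and was recovered in each simulated library at the values estimated here, but came out well below the true value in some libraries when those values were rounded, so read numbers outside hTNFtg replicate 1 rest on that estimate. Named besides the 6 genes were Saa4, Crp, Apcs, Il6, Cebpb, Cebpd and Nfkbiz, the Saa cluster, the 5 genes closest in pattern to Saa3, Lcn2, Ptx3 and Hp, and from each list and comparison up to 4 genes in each direction with the largest change past the rule, among genes that average 10 or more and whose groups do not overlap; where a list's raised or lowered genes are counted, all are named, and Stat3 and Socs3 were chosen after their values were seen. Nfkb2, Rela and Bcl3, named as the other NF-kB genes of their list, were also outside this choice of names. Itgam has 2 rows, of which the higher was used. Identity between Saa transcripts was computed with Biopython 1.88 from the GENCODE annotation on mm10.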

Additional observations from a re-analysis of the deposited data

How the results depend on the processing

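Saa3 was past the rule, in the direction reported, under each alternative run in all 3 comparisons, and so was Hp in hTNFtg versus WT SFs. Of 246 alternative log2 differences of the 6 genes, 237 lay within 1 SD of the value reported, 9 moved by more (8 of them of Saa1 or Saa2 and 1 of Hp, at 2.05 with array quality weights in hTNFtg versus WT SFs) and 0 that were past the rule changed sign. The count of the 6 genes past the rule in hTNFtg versus WT SFs was 3 as reported, beside 6.39% of all genes. It was 5 with array quality weights (beside 12.4%) and 5 with edgeR (beside 8.45%), both adding Saa1 and Lcn2. With a library left out it was 2 to 5, beside 5.02% to 8.91%. In infliximab versus untreated hTNFtg SFs it was 2, beside 2.43%, and 1 to 2 with a library left out, beside 1.5% to 4.99%. In infliximab-treated hTNFtg versus WT SFs it was 3, beside 6.81%. It was 1 with all 9 libraries in one fit, beside 5.4%, and 1 to 2 with a library left out, beside 6.19% to 9.11%. Of the related genes, 30 of 85 were past the rule in hTNFtg versus WT SFs, beside 6.39% of all genes (22 to 32 with a library left out, beside 5.02% to 8.91%). In infliximab versus untreated hTNFtg SFs 9 of 90 were, beside 2.43% (20 with edgeR, beside 4.31%, and 3 to 6 with a library left out, beside 1.5% to 4.99%). In infliximab-treated hTNFtg versus WT SFs 22 of 90 were, beside 6.81%. There 33 were with edgeR, beside 7.26%, and 20 to 25 with a library left out, beside 6.19% to 9.11%. With edgeR the genes past the rule in infliximab versus untreated hTNFtg SFs were 518 higher and 711 lower, against 426 and 267 by limma. By limma they were 735 higher and 1390 lower with array quality weights, and 481 and 930 without hTNFtg replicate 1. Under each other limma setting more genes were higher than lower. Over all genes, 137 had an adjusted p under 0.05 in hTNFtg versus WT SFs, 1 to 44 with a library left out, and 209 in infliximab-treated hTNFtg versus WT SFs, 0 to 1 with a library left out. The cause of these shifts was not tested. Depth limits Saa1, Saa2 and all low genes in hTNFtg replicate 1.

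The labels do not say what a replicate number marks. Over 13600 genes, the deviations of same-numbered libraries 1, 2 and 3 correlated at 0.29, -0.14 and 0.35 in hTNFtg versus WT SFs, at 0.10, -0.15 and 0.01 in infliximab-treated hTNFtg versus WT SFs, and at 0.07, 0.20 and 0.27 in infliximab versus untreated hTNFtg SFs. In the last, all 3 were above 0 but 1 was under the 0.1 asked of every pair, and infliximab and hTNFtg libraries of different numbers reached 0.13, so the numbers were not taken as pairs, and whether they are was not settled there. With the replicate block 2 of the 6 genes were past the rule in hTNFtg versus WT SFs, beside 5.82% of all genes. In infliximab versus untreated hTNFtg SFs 1 was, beside 2.12%, and in infliximab-treated hTNFtg versus WT SFs 1 was, beside 6.01%. With that block 0 genes of the table had an adjusted p under 0.05.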
